A study of Homo sapiens with 10 samples.

Results

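Genes of mucus and of the cells that make it, 10 in all, were followed through thyroid differentiation of human embryonic stem cells. The set held 7 mucin genes (MUC1, MUC4, MUC5AC, MUC5B, MUC13, MUC16 and MUC20) and 3 genes of goblet cells (CLCA1, SPDEF and TFF3). The members were found by their symbols among the 28265 gene symbols of the count tables, and all 10 were present and were tested. RNA was sequenced in bulk from NKX2-1 GFP+ cells sorted from organoids, with 2 libraries at each of days 16, 23, 31, 38 and 45 and 10 libraries in all. All groups came from the hESC line ESIBIe003-A-6, a human embryonic stem cell line with GFP at 1 allele of NKX2-1 and lentiviral transgenes from which doxycycline drives NKX2-1 and PAX8. By the study's protocol the cells had first received Activin A and then doxycycline, which was withdrawn before day 16. The study reported by qRT-PCR that transgene expression was back at the control level before that day. The day 16 cells had been kept in basal medium by the study's methods, while their label names c-AMP. The day 23 and day 31 cells had received 8-br-cAMP, a cell-permeable analogue of cyclic AMP. The day 38 cells had received 8-br-cAMP and then, in its place, hrTSH, a recombinant thyrotropin, with dexamethasone, a glucocorticoid. The day 45 cells had also received SB431542, which blocks TGFβ receptor kinase activity. The day 45 label names TSH and SB and leaves out dexamethasone. Each day had its own medium or its own time in that medium, so that age and agent cannot be told apart. Libraries from cells kept on cAMP at the later days were not analysed here.

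Several limits of the model bear on these genes. The line came from selected clones, and wells were pooled for each sample. NKX2-1 marks lung as well as thyroid cells, so that airway cells with an active NKX2-1 locus can pass the same gate. The sorted cells carried thyroid transcripts, and the summed level of 12 thyroid markers ran from 2021 and 1592 CPM (counts scaled to the library total) in the day 16 libraries to 10172 and 9865 CPM in those of day 45. TG, the thyroid hormone precursor, was the most abundant and rose from a mean of 11.2 to 7742 CPM, which made up most of the difference. By edgeR's test, 7 of the 12 were higher and 4 lower at day 45 than at day 16, beside 12.9% and 11.7% of all genes tested. NKX2-1, the gene of the gate, fell from 143 to 62.4 CPM between days 38 and 45. In bulk samples, fewer cells of a type and less RNA per cell cannot be told apart.

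Mucins are large glycoproteins with long stretches of serine and threonine that carry O-linked sugars. MUC5AC and MUC5B are secreted and form the gel of airway mucus, while MUC1, MUC4, MUC13 and MUC16 span the membrane and line the apical face of epithelia. Goblet cells store gel-forming mucins in granules. SPDEF is a transcription factor of their maturation, CLCA1 is a protease they secrete with mucus, and TFF3 is a small trefoil peptide of mucous surfaces.

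Summed over the 10 genes, the mean level of day 16 was 34.1 ± 2.74 CPM (SD, n = 2), that of day 23 was 37.7 ± 12.4, that of day 31 was 102 ± 1.34, that of day 38 was 164 ± 25.8 and that of day 45 was 407 ± 6.42. The sum was higher in both libraries of each day from day 31 onward than in any library of the days before. Library totals ran from 7247268 to 10333933 counts, and CPM values were scaled by TMM factors. A count of 3 in a library, taken as the floor for folds against a day without counts, was worth 0.307 to 0.435 CPM, which covers counting error only. The genes did not share 1 course. All but MUC5AC and MUC16 had their highest mean at day 45, MUC5AC had it at day 38 and MUC16 at day 31. MUC20 had its lowest mean at day 23, and SPDEF stayed low, with 1 to 20 counts in each library.

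**Figure D1:**
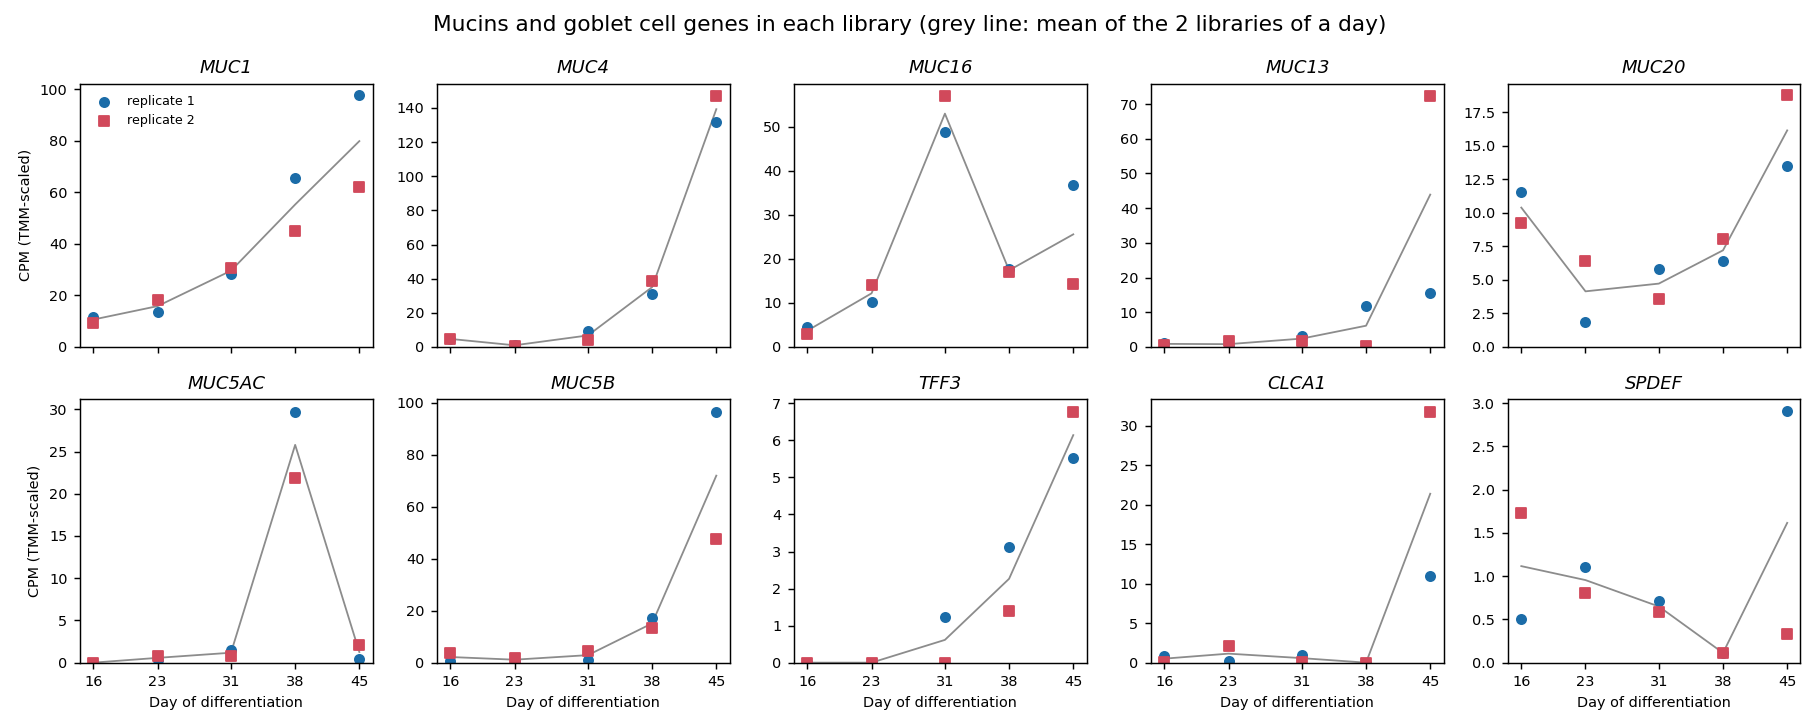
Level of each of the 10 genes in CPM, with TMM scaling, on the vertical axis (linear, from 0, a separate range for each gene) against the day of differentiation; circles are replicate 1, squares are replicate 2 and the grey line joins the means of the 2 libraries of a day. MUC5AC is high in both libraries of day 38 alone, MUC16 peaks at day 31, and MUC4, MUC5B and CLCA1 are highest in both libraries of day 45.

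The sequence before the start of transcription is shown for 4 of the members that rose, since the media held agents whose effectors have known DNA motifs and since these stretches differ in base composition. RefSeq (GRCh38.p14) gave promoter windows for 6 members, MUC1, MUC4, MUC13, MUC16, CLCA1 and SPDEF. The 120 bases before the start are printed 5′ to 3′ on the strand of the gene. Capitals mark matches, on either strand, to TGACGTCA or TGACG (a cyclic AMP response element and its 5-base core), AGAACA (a glucocorticoid receptor core), CACTTG (an NKX2-1 core), GGAAGT and GGATGT (ETS and SPDEF type), GTCTAGAC (a SMAD element), TATAAA and GGGCGG (a GC box). The stretches are chr1:155192916-155193035 for MUC1, chr3:195811930-195812049 for MUC4 and chr3:124934752-124934871 for MUC13, all on the minus strand, and chr1:86468807-86468926 on the plus strand for CLCA1.
MUC1: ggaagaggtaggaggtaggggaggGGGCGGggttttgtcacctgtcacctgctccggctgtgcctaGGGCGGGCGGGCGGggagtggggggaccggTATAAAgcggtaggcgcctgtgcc
MUC4: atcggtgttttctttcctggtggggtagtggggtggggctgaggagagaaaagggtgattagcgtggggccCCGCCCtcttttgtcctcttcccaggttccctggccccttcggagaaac
MUC13: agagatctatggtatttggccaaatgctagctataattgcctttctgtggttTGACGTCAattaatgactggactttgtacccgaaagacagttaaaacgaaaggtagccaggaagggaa
CLCA1: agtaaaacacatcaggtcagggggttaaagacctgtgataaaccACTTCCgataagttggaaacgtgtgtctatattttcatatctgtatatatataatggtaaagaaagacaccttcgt

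The GC content of these stretches was 69.2% for MUC1, 59.2% for MUC4, 40.8% for MUC13 and 35.8% for CLCA1, beside a median of 58.7% over 35116 promoter windows of 300 bases. In the windows of 300 bases, TGACGTCA stood only in that of MUC13 among the 6 members, at position -68, and in 1.85% of all windows. Its 5-base core lies inside it and stood in 24.6% of all windows. AGAACA stood in the windows of MUC1 and MUC13 and in 14.8% of all windows. CACTTG stood in that of MUC4 and in 11.5% of all. GGGCGG stood in those of MUC1 and MUC4, in 1 of the 2 windows of MUC16 (that at chr19:9065702-9066001, which lies outside the span given for the gene below) and in 45% of all, and TATAAA in that of MUC1 and in 11.5% of all. GGAAGT stood in those of CLCA1 and SPDEF and in 22.8% of all, GGATGT in that of CLCA1 and in 10.1%, and GTCTAGAC in none of the members and in 0.202%. A match to these letters is a description of the sequence and not a binding site. The start of transcription that RefSeq gives lies 19068 bases inside the gene as GENCODE draws it for MUC13 and 559 bases inside for CLCA1.

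MUC1, a membrane mucin of most simple epithelia, lies at chr1:155185824-155192916 on the minus strand (GRCh38, GENCODE 44), as do all positions given below. The day 16 libraries held 11.8 and 9.48 CPM, the day 23 libraries 13.4 and 18.3, the day 31 libraries 28.3 and 30.8, the day 38 libraries 65.4 and 45.2, and the day 45 libraries 97.8 and 62.0. No library overlapped between day 38 and day 31, whereas the lower library of day 45 lay inside the range of day 38. By the quasi-likelihood test of edgeR, with p-values adjusted by Benjamini-Hochberg over 21014 genes, MUC1 was higher at day 45 than at day 16 by 2.91 ± 0.28 (log2 fold change ± SE, adjusted p = 2.78e-10). Among the weekly steps, that from day 31 to day 38 passed the test (0.90 ± 0.26, adjusted p = 0.0121). It did not pass without day 31 replicate 1 (0.84, adjusted p = 0.120), without day 31 replicate 2 (0.96, adjusted p = 0.0670) or without day 38 replicate 1 (0.61, adjusted p = 0.318), nor with scaling by library size alone (0.68, adjusted p = 0.0660). The step from day 23 to day 31 had the same size (0.90 ± 0.27, adjusted p = 0.0672).

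MUC4, a large membrane mucin that binds the receptor ERBB2, lies at chr3:195746765-195811973 on the minus strand. The day 16 libraries held 4.82 and 4.55 CPM, the day 23 libraries 1.11 and 0.80, the day 31 libraries 9.52 and 3.96, the day 38 libraries 31.2 and 38.9, and the day 45 libraries 132 and 147. The libraries of each day were separate from those of the day before in all 4 steps. MUC4 fell by 2.28 ± 0.43 (log2 fold change ± SE) to day 23 (edgeR's test, adjusted p = 0.00033). It then rose by 2.81 ± 0.41 to day 31 (adjusted p = 3.39e-05), by 2.36 ± 0.29 to day 38 (adjusted p = 1.59e-07) and by 1.99 ± 0.27 to day 45 (adjusted p = 1.29e-06). It was the only one of the 10 genes to pass the test in every weekly step, and its level at day 45 stood 4.89 ± 0.32 above that of day 16 on the log2 scale (adjusted p = 2.16e-14). Leaving out any 1 library left each of these calls in place, although without day 31 replicate 1 the step to day 31 was 2.03 and that to day 38 was 3.14.

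MUC16, the membrane mucin that carries the CA125 antigen and binds mesothelin, lies at chr19:8848844-9010390 on the minus strand. For MUC16 the day 16 libraries held 4.56 and 2.83 CPM, the day 23 libraries 10.3 and 14.1, the day 31 libraries 48.9 and 57.1, the day 38 libraries 17.7 and 17.1, and the day 45 libraries 36.9 and 14.3. Both libraries of day 31 lay above every other library. It was higher at day 23 by 1.72 ± 0.39 (log2 fold change ± SE, edgeR adjusted p = 0.00245), rose by 2.12 ± 0.35 (adjusted p = 0.000198) to day 31 and fell by 1.61 ± 0.34 (adjusted p = 0.00078) to day 38. Without day 16 replicate 2 the first step was 1.41 (adjusted p = 0.0512). The libraries of day 45 lay on either side of those of day 38, and the difference of 0.55 ± 0.34 did not pass the test (adjusted p = 0.371). MUC16 ended 2.78 ± 0.39 above day 16 (adjusted p = 7.28e-07), or 1.95 without day 45 replicate 1. Markers of alveolar type 2 cells were highest in sum in both libraries of day 31, while the sum of those of mesothelium was high at days 23 and 31. Of 8 alveolar markers, of which 7 were tested, the sum was 61.9 and 35.3 CPM in the day 16 libraries, 225 and 218 in those of day 23, 637 and 641 in those of day 31, 137 and 136 in those of day 38, and 131 and 162 in those of day 45. SFTPB, a surfactant protein gene, was the most abundant of them over the 10 libraries, with 499 and 502 CPM in those of day 31. ABCA3 followed and did not peak at day 31, with 101 and 112 CPM then and 122 and 118 at day 38. SFTPC, which defines those cells, had 1 count over the 10 libraries. Of 7 mesothelial markers, all tested, the sum was 30.4 and 37.1 CPM in the day 16 libraries, 62.2 and 66.5 in those of day 23, 59.9 and 90.3 in those of day 31, 32.8 and 26.8 in those of day 38, and 38 and 16.3 in those of day 45. BNC1, the most abundant, made up much of it, with 26.2 and 46.6 CPM in the day 31 libraries. LRRN4 also had its highest means at days 23 and 31. MSLN, the mesothelin gene and also in this list, instead had 7.06 and 4.07 CPM at day 31 and 15.2 and 15.0 at day 38. WT1 had means of 5.40 and 7.79 CPM on these days, and UPK3B had 1.16 at day 31 against 3.05 at day 16. The part of alveolar or mesothelial cells in the MUC16 values was not tested.

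MUC13, a membrane mucin best known from the intestine, lies at chr3:124905442-124953819 on the minus strand. The day 16 libraries held 1.14 and 0.616 CPM, the day 23 libraries 0 and 1.60, the day 31 libraries 3.17 and 1.63, the day 38 libraries 11.9 and 0.349, and the day 45 libraries 15.5 and 72.3. The spread within a day was wide, since at day 38 replicate 1 held 110 counts and replicate 2 held 3. MUC13 was higher at day 45 than at day 38 by 2.84 ± 0.76 (edgeR, adjusted p = 0.0105) and than at day 16 by 5.63 ± 0.93 (adjusted p = 1.32e-05). The difference from day 16 was 4.13 without day 45 replicate 2 and 6.34 without replicate 1. The weekly difference was 1.89 without day 38 replicate 2 (adjusted p = 0.153), 1.34 without day 45 replicate 2 (adjusted p = 0.584), 6.92 without day 38 replicate 1 and 3.55 without day 45 replicate 1, and did not pass with DESeq2 (2.89, adjusted p = 0.353).

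MUC20, a membrane mucin reported to bind the receptor MET, lies at chr3:195720884-195741123 on the plus strand. Its values are uncertain, because 34.6% of its longest transcript, in stretches of 50 bases, was shared with 33 other genes, of which the pseudogene MUC20P1 shared the most. A further gene, MUC20-OT1, covers 27.1% of its exon bases on the same strand. Of MUC20, the day 16 libraries held 11.5 and 9.23 CPM, the day 23 libraries 1.88 and 6.40, the day 31 libraries 5.83 and 3.61, the day 38 libraries 6.37 and 8.03, and the day 45 libraries 13.5 and 18.8. It differed among the 5 days (edgeR, adjusted p = 0.0109), with both libraries of day 45 above all others, but no weekly step passed, the nearest being that from day 16 to day 23 (log2 fold change -1.33 ± 0.53, adjusted p = 0.114).

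The gel-forming pair MUC5AC and MUC5B lie side by side on chromosome 11, at 1157953-1201138 and 1223066-1262172, both on the plus strand. Neither library of day 16 held a count of MUC5AC, the day 23 libraries held 0.332 and 0.80 CPM, the day 31 libraries 1.53 and 0.814, the day 38 libraries 29.7 and 21.9, and the day 45 libraries 0.435 and 2.07. Both libraries of day 38 stood above all 8 others, with 275 and 188 counts, while the next highest library held 19. The step of MUC5AC to day 38 was a rise of 4.43 ± 0.73 (log2 fold change ± SE, edgeR, adjusted p = 2.80e-05) and from there to day 45 it fell by 4.30 ± 0.73 (adjusted p = 6.24e-05). Both calls held when any 1 library was left out, and the fall was -3.63 without day 45 replicate 1 and -5.84 without replicate 2. The 3 and 7 counts of day 23 were at least 1.51-fold higher than day 16 (adjusted p = 0.0405), and this call was lost in 6 of 10 fits that each left out 1 library, those without day 16 replicate 1 or 2, day 23 replicate 2, day 31 replicate 1 or day 38 replicate 1 or 2. Without day 23 replicate 2 the level of day 23 lay under the floor of day 16. Day 45 was at least 3.35-fold higher than day 16 (adjusted p = 0.0015), which did not pass without day 45 replicate 2 (at least 1.16-fold, adjusted p = 0.0710).

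For MUC5B, the day 16 libraries held 0.761 and 3.57 CPM, the day 23 libraries 0.554 and 1.71, the day 31 libraries 1.13 and 4.65, the day 38 libraries 17.1 and 13.2, and the day 45 libraries 96.5 and 47.4. It was thus higher in both libraries of day 38 than in any earlier one, and higher again in both of day 45. The step to day 38 was 2.41 ± 0.50 (log2 fold change ± SE, edgeR adjusted p = 0.000651) and that to day 45 was 2.25 ± 0.45 (adjusted p = 0.000526). Without day 31 replicate 1 the former was 1.70 (adjusted p = 0.0700), and without day 31 replicate 2 it was 3.72. Without day 45 replicate 1 the latter was 1.65 (adjusted p = 0.110). Neither step passed with DESeq2 (2.37, adjusted p = 0.0775, and 2.30, adjusted p = 0.0971). From day 16 to day 45 the difference was 5.04 ± 0.54 (adjusted p = 3.59e-09), 4.31 without day 16 replicate 1, 6.53 without day 16 replicate 2 and 4.44 without day 45 replicate 1.

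The neighbours therefore moved in opposite directions after day 38. MUC5AC made up 63.5% and 62.5% of the counts of the pair at day 38 and 0.449% and 4.19% at day 45. At day 31 the share was 57.7% and 14.9%, on 15 and 7 counts of MUC5AC. Within each gene many stretches of 50 bases recur, 21.4% of the longest transcript of MUC5AC, 29.2% of MUC5B and 28.9% of MUC4, whereas 0.379% of MUC5AC and 2.3% of MUC5B were shared with another gene. How reads from recurring stretches were counted is not given in the sources used here, and the effect on levels was not tested.

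**Figure D2:**
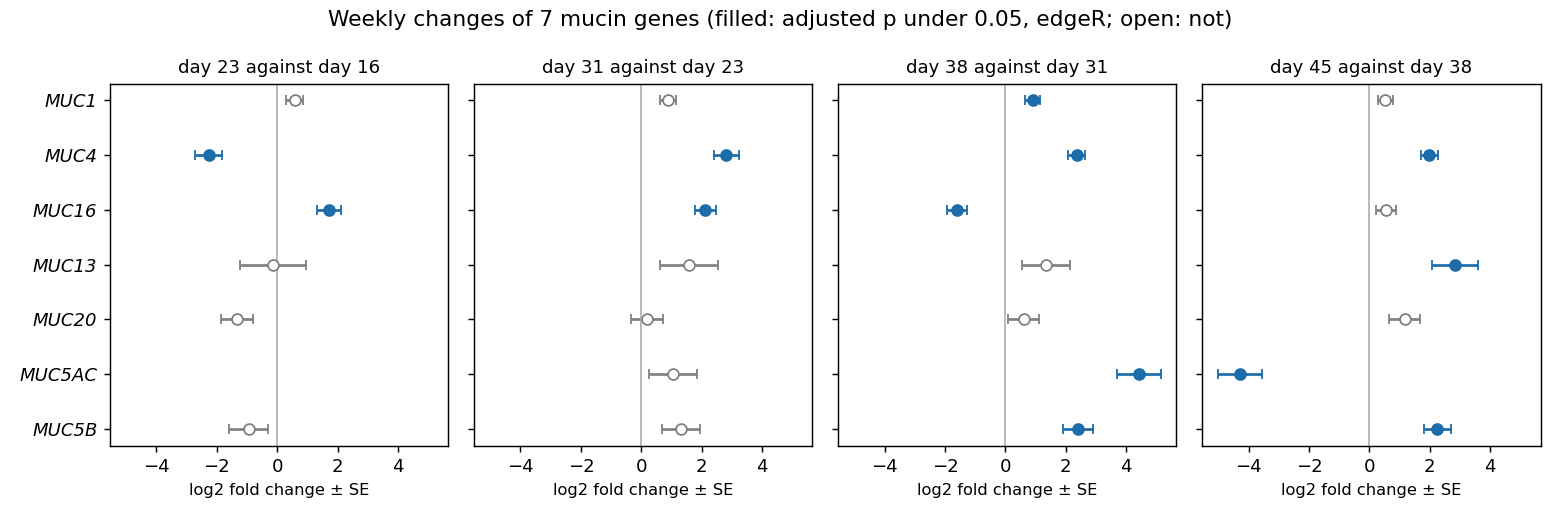
Log2 fold change (horizontal axis, bars show the SE) between neighbouring days for 7 mucin genes, 1 panel per step; filled points passed edgeR's test at an adjusted p under 0.05 and open points did not. The first step of MUC5AC is left out because day 16 held no counts; MUC4 passes in all 4 panels, and MUC5AC passes in opposite directions in the last 2.

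CLCA1, at chr1:86468368-86500259 on the plus strand, was low until day 38 and was found in both libraries of day 45. Of CLCA1, the day 16 libraries held 0.887 and 0.123 CPM, the day 23 libraries 0.222 and 2.06, the day 31 libraries 1.02 and 0.116, the day 38 libraries none, and the day 45 libraries 11 and 31.8, from 76 and 291 counts. Day 45 was at least 63.6-fold higher than day 38 (edgeR, adjusted p = 5.64e-06), or at least 32.8-fold without day 45 replicate 2, and 5.38 ± 1.00 above day 16 on the log2 scale (adjusted p = 8.06e-05). The difference from day 16 did not pass without day 45 replicate 2 (4.41, adjusted p = 0.0654), and was 7.27 without day 16 replicate 1 and 4.57 without day 16 replicate 2. The loss of its few counts between day 31 and day 38 did not pass (adjusted p = 0.0563). With DESeq2 or with library size alone, 2 members were called lower in this step, in place of MUC16 alone.

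TFF3, at chr21:42311667-42315409 on the minus strand, had no counts in the 4 libraries of days 16 and 23. The day 31 libraries held 1.23 and 0 CPM, the day 38 libraries 3.13 and 1.40, and the day 45 libraries 5.52 and 6.77. Both libraries of day 45 were above all others, and day 45 was at least 16.4-fold higher than day 16 (edgeR, adjusted p = 0.00247), while no weekly step passed. SPDEF lies at chr6:34537802-34556333 on the minus strand. The day 16 libraries held 4 and 14 counts of it, the day 23 libraries 10 and 7, the day 31 libraries 7 and 5, the day 38 libraries 1 and 1, and the day 45 libraries 20 and 3. A library of day 45 lay above all earlier ones and the other within their range, and SPDEF did not differ detectably among days at this depth (adjusted p = 0.585).

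Read against all genes, the counts of members that passed edgeR's test were as follows. From day 16 to day 23, 3 of the 10 genes passed, MUC5AC and MUC16 higher and MUC4 lower, while 10.9% of all genes tested passed, 5.6% higher and 5.33% lower. Without day 16 replicate 2, MUC4 alone passed. From day 23 to day 31, 2 passed, MUC4 and MUC16, both higher, against 2.25% of all genes, 1.58% higher and 0.666% lower. From day 31 to day 38, 5 passed, MUC1, MUC4, MUC5AC and MUC5B higher and MUC16 lower, against 15% of all genes, 8.8% higher and 6.23% lower. That comparison depended on scaling more than the others, with 1850 genes higher and 1310 lower, but 1183 and 2368 with library size alone, which moved the median of all genes to -0.20 on the log2 scale. Without day 31 replicate 1, 3 of the 10 genes passed (MUC4, MUC5AC and MUC16).

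From day 38 to day 45, 5 passed, MUC4, MUC5B, MUC13 and CLCA1 higher and MUC5AC lower, against 11.2% of all genes, 4.85% higher and 6.35% lower. DESeq2 called 3 of them (MUC4, MUC5AC and CLCA1). From day 16 to day 45, 8 passed and all were higher, against 12.9% of all genes called higher, 11.7% lower and 24.6% in either direction. MUC20 and SPDEF were the other two. The median log2 fold change of the 10 genes over that whole span was 4.96 as fitted and 3.47 with MUC5AC and TFF3, which had no counts at day 16, set to their lower bounds, beside 0 for all genes tested. The libraries of the days did not overlap for 9 of 10 members in that comparison, which 57.8% of all genes also did. Over all 5 days, 9 of the 10 genes differed, beside 36.3% of all genes.

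Levels were set per kilobase of exon to compare the genes with each other. MUC1 was first on every day, from 4.43 ± 0.68 CPM per kb (SD, n = 2) at day 16 to 33.3 ± 10.5 at day 45, and its libraries overlapped those of the next gene on none of the 5 days. Second place went to MUC20 at day 16 (1.52 ± 0.24) and to MUC16 at day 31 (1.2 ± 0.13). At day 38 TFF3 (2.46 ± 1.33), MUC13 (1.75 ± 2.33), MUC4 (1.67 ± 0.26) and MUC5AC (1.48 ± 0.32) followed MUC1, and each of these overlapped its neighbour. At day 45 the order was MUC13 (12.5 ± 11.5), TFF3 (6.66 ± 0.96), MUC4 (6.63 ± 0.52), CLCA1 (6.47 ± 4.43), MUC5B (3.87 ± 1.87) and MUC20 (2.36 ± 0.55), each overlapping the next. SPDEF (0.84 ± 0.95) and MUC16 (0.58 ± 0.36) came lower, and MUC5AC was last at 0.072 ± 0.066. The long transcripts of MUC16 and MUC4 thus gave many counts at a modest level per length.

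The 2 libraries of day 45 differed in which members were high. Replicate 2 held more MUC13 (662 against 107 counts) and CLCA1 (291 against 76), and replicate 1 more MUC5B (665 against 434) and MUC16 (254 against 131). Genes of intestinal type epithelium did not all split in 1 way. CDH17, an intestinal cadherin, had 258 counts in replicate 1 and 794 in replicate 2 of day 45 but 201 and 64 a week before. MUC17, a membrane mucin of the gut, held 77 and 346 on the later of these days and 155 and 2 on the earlier, and TSPAN8, a tetraspanin of mucous epithelia, held 62 and 478 and then 64 and 15 in the same order. FCGBP, a mucus protein that binds IgG Fc, went the other way at day 45, with 201 and 125 counts, as did ITLN1, an intestinal goblet cell lectin named after its values were seen, with 260 and 11. Of the intestinal markers, LGALS4 had 9.14 CPM in replicate 1 and 6.77 in replicate 2, and VIL1 had 19.4 and 20.7. Of 8 intestinal markers, all tested and 3 higher at day 45 than at day 16 (beside 12.9% of all genes), the summed level was 27.8 and 16.4 CPM in the day 16 libraries, 22.5 and 15.7 in those of day 23, 70.5 and 71.1 in those of day 31, 71.0 and 50.1 in those of day 38, and 101 and 153 in those of day 45. CDH17 was the most abundant of them, while CDX2, the factor that defines intestinal identity, held 26 and 24 counts in the day 45 libraries and 30 and 23 in those of day 16. The part of intestinal epithelial cells in the MUC13 and CLCA1 values was not tested.

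**Figure D3:**
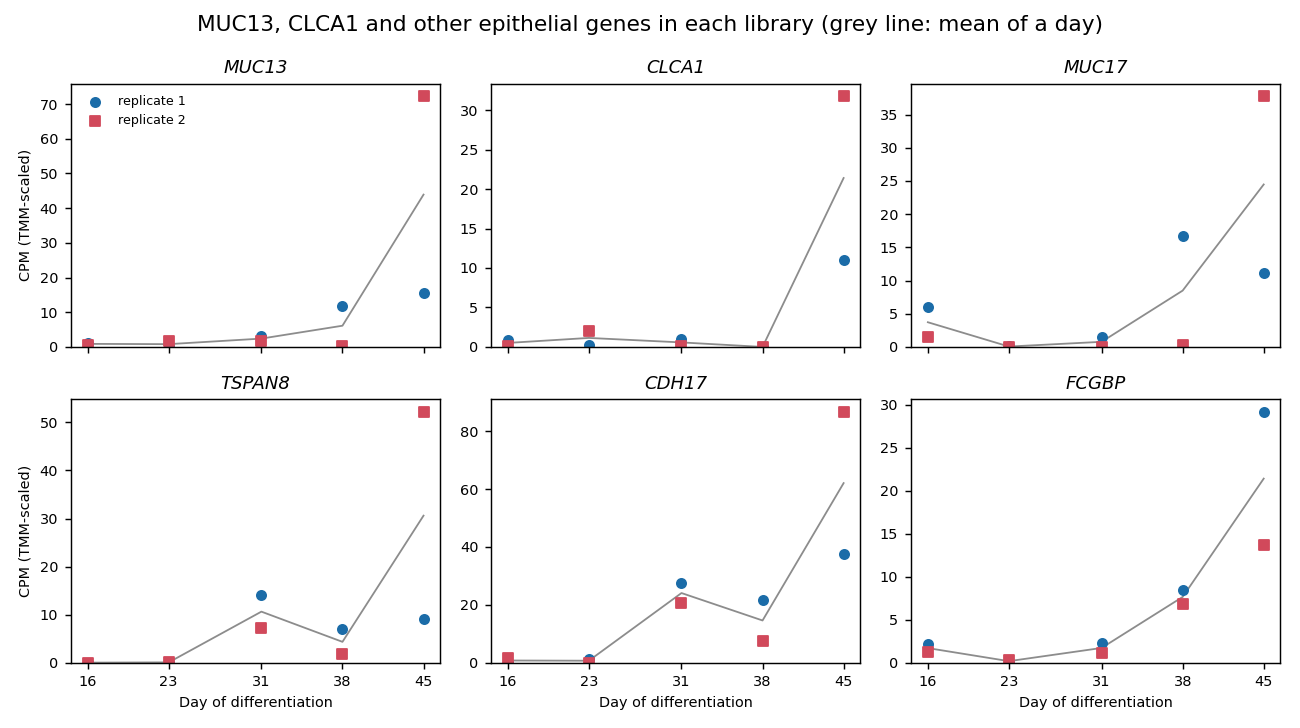
Level in CPM (linear axis from 0, a separate range for each gene) against day for MUC13, CLCA1, MUC17, TSPAN8, CDH17 and FCGBP; circles are replicate 1, squares replicate 2, and the grey line joins day means. At day 45 the first 5 are higher in replicate 2 and FCGBP in replicate 1, and at day 38 MUC13 and MUC17 are far higher in replicate 1.

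Markers of other cells the gate could hold were measured beside these genes. Fibroblast, muscle, blood cell and gastric surface markers were added, for cells that the sort on NKX2-1 GFP was not meant to collect. Of 8 airway basal cell markers, 7 were tested, 3 were higher at day 45 than at day 16 by edgeR's test, beside 12.9% of all genes called higher and 11.7% lower in that comparison, and DAPL1 was at 0. Their sum was 26.6 and 19.6 CPM in the day 16 libraries, 21.8 and 10.5 in those of day 23, 33.1 and 50.7 in those of day 31, 119 and 102 in those of day 38, and 139 and 115 in those of day 45. KRT17 was the most abundant, and KRT5, a keratin of basal cells, went from 1 and 0 counts at day 16 to 254 and 258 at day 45. TP63, the factor of basal cells, had a mean of 12.9 CPM at day 16 and 8.94 at day 45 and was called lower at day 23 than at day 16 (though not without replicate 1 of either day), while KRT15 had 2.71 CPM at day 45 against 7.41 at day 16 and S100A2 had 0.49 against 1.43, differences that did not pass. Among 6 club cell markers, of which 5 were tested and 2 were higher at day 45 than at day 16, SCGB3A2, a secretoglobin, was the most abundant and had 211 and 89 counts at day 45, while SCGB1A1, which defines club cells, was at 0 in both libraries of that day. Their sum was 0.127 and 4.43 CPM in the day 16 libraries, 4.65 and 1.14 in those of day 23, 7.67 and 11.5 in those of day 31, 5.83 and 4.19 in those of day 38, and 36.7 and 11.2 in those of day 45. Of 8 ciliated cell markers, all tested, FOXJ1, the factor of motile cilia, and TPPP3 were lower at day 38 than at day 31 (beside 6.23% of all genes) and at day 45 than at day 16, the latter for FOXJ1 not without day 16 replicate 1 or either library of day 45, and TUBB4B was the most abundant. Their sum was 226 and 156 CPM in the day 16 libraries, 165 and 166 in those of day 23, 179 and 177 in those of day 31, 160 and 131 in those of day 38, and 151 and 120 in those of day 45. Of 5 blood cell markers, 4 were tested and HBB was at 0, and CD14 and CD68 were higher at day 45 than at day 38, beside 4.85% of all genes, calls lost without day 38 replicate 2 and, for CD14, also without day 38 replicate 1. Their sum was 27.4 and 11.2 CPM in the day 16 libraries, 3.55 and 5.37 in those of day 23, 9.93 and 12.2 in those of day 31, 11.99 and 5.35 in those of day 38, and 40.3 and 41.8 in those of day 45, most of it from CD68, while PTPRC, which defines those cells, held 4 and 0 counts at day 45. Of 7 fibroblast markers, all tested, 6 were higher and 1 lower at day 45 than at day 16. Of all genes, the same 12.9% and 11.7% were so called. Their sum was 919 and 1139 CPM in the day 16 libraries, and 1657 and 1644 in those of day 23. It was 1460 and 1729 in those of day 31, before a rise to 4230 and 4457 in those of day 38. The last libraries, of day 45, held 4453 and 3568, and COL3A1 was the most abundant marker. The marker called lower was PRRX1, whose mean of 39.1 CPM in the day 16 libraries fell to 8.43 by day 45. LUM had its highest mean, 168 CPM, in the day 23 libraries, and this had dropped to 42.0 by day 38. Of 7 cardiac and smooth muscle markers, all tested, 6 were higher at day 38 than at day 31 (5 with library size alone), the step in which MUC5AC and MUC5B rose and 8.8% of all genes were called higher. Their sum was 54.6 and 35.1 CPM in the day 16 libraries, 38.3 and 32.8 in those of day 23, 40.6 and 36.6 in those of day 31, 277 and 254 in those of day 38, and 209 and 231 in those of day 45, and MYH6 was the most abundant. Of 6 gastric surface markers, 3 were tested and 1, TFF1, was higher at day 45 than at day 16, with 5 and 65 counts in the day 45 libraries, a call lost without day 45 replicate 2 or either library of day 16. The sum of the 6 was 1.52 and 5.05 CPM in the day 16 libraries and 5.95 and 13.98 in those of day 45. CLDN18 was the most abundant of them over the 10 libraries, and TFF1 at day 45 (mean of 3.91 against 2.43 CPM). GKN1 and GKN2, which define those cells, were at 0 in all libraries. The part of these cells in the mucin values was not tested.

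Of 16 other mucins, 11 were tested and 5 passed edgeR's test from day 16 to day 45, 3 higher and 2 lower, with a median log2 fold change of 0.44. For all genes tested, 24.6% passed in that comparison and the median was 0, which also holds for the lists that follow. MUC17 was higher (24.5 ± 18.8 against 3.72 ± 3.17 CPM, adjusted p = 0.0234), although not without day 16 replicate 2 or day 45 replicate 2. CD164, a sialomucin of many cell types, was also higher (734 ± 20.8 against 438 ± 63.6 CPM, adjusted p = 8.06e-06). The podocalyxin gene PODXL, an apical sialomucin, fell by 2.53 ± 0.17 on the log2 scale (adjusted p = 5.20e-14), and endomucin (EMCN) fell by 1.62 ± 0.26 (adjusted p = 1.01e-05). In the step to day 23 the list had 1 higher and 3 lower, beside 5.6% and 5.33% of all genes. It had 1 and 1 in the step to day 31 (1.58% and 0.666% of all genes), 2 and 1 in that to day 38 (8.8% and 6.23%) and 1 higher in that to day 45 (4.85%). MUC2, the gel-forming mucin of the intestine, is named here after its values were seen. It had no counts at days 16 and 23, 36 in each library of day 31, 9 and 18 in those of day 38, and 78 and 74 in those of day 45. MUC21, MUC22 and MUCL1 had no counts in any library.

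Other products of goblet and mucous cells were also followed. Of 18 genes, 11 were tested and 8 passed from day 16 to day 45, all higher, beside 12.9% of all genes called higher, with a median log2 fold change of 6.91 as fitted and 3.38 with the 5 genes that had no counts at day 16 set to their lower bounds. The other 3 tested, CLCA2, LCN2 and BPIFB1, did not pass. AGR2, the endoplasmic reticulum protein that goblet cells need to fold mucins, went from 10.2 ± 3.72 CPM at day 23 to 145 ± 14.9 at day 31 (log2 fold change 3.84 ± 0.28, edgeR adjusted p = 3.78e-11). It then fell by 2.17 ± 0.25 to day 38 (adjusted p = 3.92e-08) and stood at 63.5 ± 17.5 CPM at day 45. The peak of AGR2 at day 31 was thus the day of the MUC16 peak and came before those of MUC5AC and MUC5B. WFDC2, an airway secretory protein, rose from 24.5 ± 6.56 to 93.6 ± 18.5 CPM between day 31 and day 38 (adjusted p = 4.53e-06). FCGBP rose from a mean of 1.69 ± 0.65 CPM to 21.4 ± 11 between days 16 and 45 (adjusted p = 6.96e-05). AGR3, a paralog of AGR2, rose over the same span from 0.25 ± 0.35 to 11.7 ± 1.54 CPM (adjusted p = 1.53e-05).

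Other regulators were followed beside SPDEF. Of 16 regulators of goblet cells, 15 were tested, and between days 16 and 45 they counted 6 higher and 1 lower, with 0.60 as the median log2 fold change. In the step to day 38, 6 of the 15 were higher, beside 8.8% of all genes called higher, but 2 were higher and 1 lower with library size alone. FOXA1, a forkhead factor of foregut epithelium, rose from 0.31 ± 0.43 to 8.22 ± 4.83 CPM by day 23 (edgeR, adjusted p = 4.00e-06). FOXA2, its relative, rose from 3.15 ± 0.09 to 18.1 ± 6.29 CPM between day 23 and day 31 (adjusted p = 0.00431). That call was lost without day 23 replicate 1 or 2 or day 31 replicate 1. The fall of FOXA2 to 4.02 ± 0.96 CPM at day 45 (adjusted p = 0.0331) was lost in 5 of 10 fits that each left out 1 library, day 31 replicate 1 and each library of days 38 and 45.

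KLF4, a factor of goblet and squamous differentiation, fell from 92.3 ± 0.031 to 15.6 ± 0.22 CPM by day 23 (adjusted p = 8.40e-11) and rose from 19.2 ± 3.34 at day 38 to 121 ± 8.01 at day 45 (adjusted p = 4.14e-11). Like MUC4 and MUC20 it had its lowest or near lowest mean in the cAMP period and its highest at day 45. XBP1, a factor of the secretory stress response, rose from 76.9 ± 10.6 to 151 ± 5.29 CPM between day 31 and day 38 (adjusted p = 2.58e-05), the step in which MUC5AC and MUC5B rose. ATOH1, the factor that sets the secretory fate in the intestine, had 3 counts over the 10 libraries and was not tested.

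**Figure D4:**
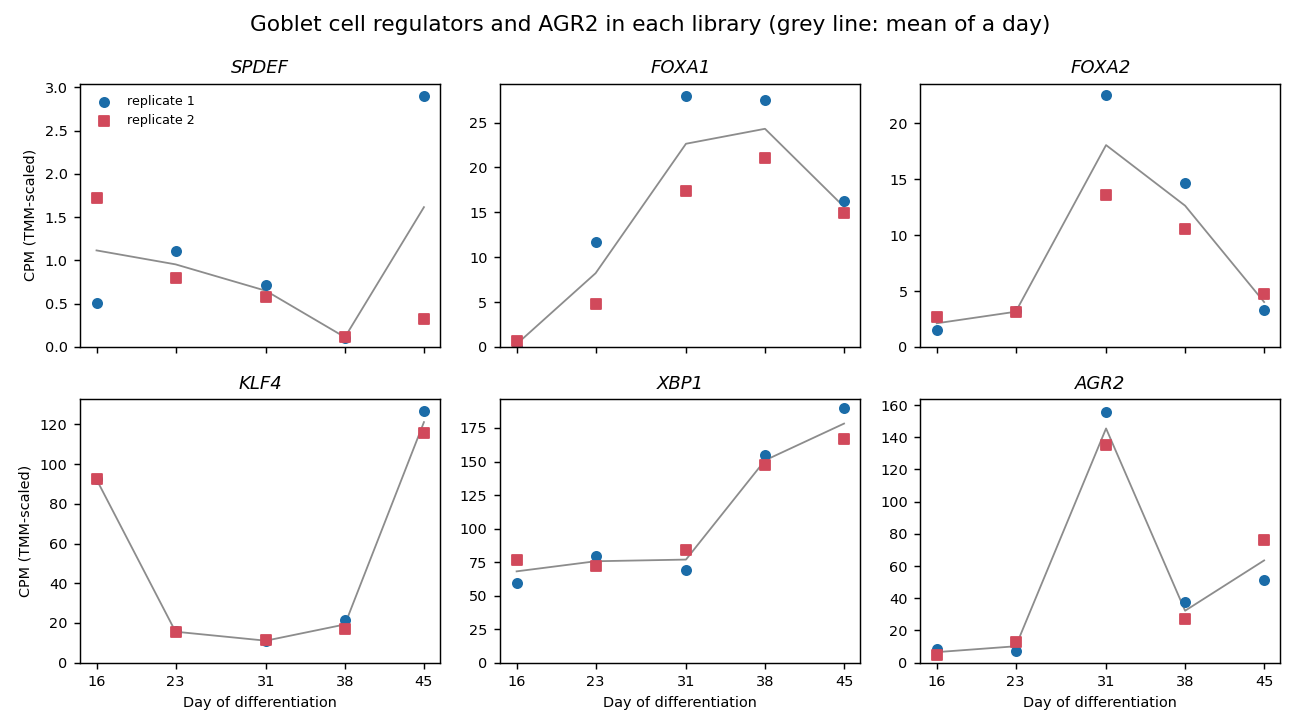
Level in CPM (linear axis from 0, a separate range for each gene) against day for SPDEF, FOXA1, FOXA2, KLF4, XBP1 and AGR2; circles are replicate 1, squares replicate 2, and the grey line joins day means. AGR2 and FOXA2 peak at day 31, KLF4 is high at days 16 and 45, and SPDEF stays under 3 CPM.

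Genes that build and release mucins were counted in the same way. Of 26 enzymes of O-glycosylation, all tested, 8 were higher and 2 lower at day 45 than at day 16, with a median log2 fold change of 0.62. ST3GAL1, which caps mucin sugars with sialic acid, was up by 2.44 ± 0.26 (log2 scale, edgeR's adjusted p = 3.00e-09). It rose by 1.51 ± 0.26 to day 23 (adjusted p = 7.67e-05), to a mean of 32.1 CPM, and stood at 20.6 CPM at day 31. From day 31 to day 38 it rose by 1.39 ± 0.25 (adjusted p = 7.44e-05). GCNT1, which branches mucin sugars, rose in that step by 1.78 ± 0.38 (adjusted p = 0.000901). GALNT10, which starts the sugar chains, fell by 1.41 ± 0.30 in it (adjusted p = 0.000716). From day 38 to day 45, when MUC4 and MUC5B rose, 0 of the 26 passed with edgeR or with DESeq2, beside 11.2% of all genes with edgeR, and 3 had an unadjusted p under 0.05. Of 17 genes of granule release and ion transport, 4 were higher and 1 lower at day 45 than at day 16, with a median of 0.28, so that 5 of 17 passed beside 24.6% of all genes. CFTR, the chloride channel that hydrates mucus, had no counts at day 16 and was at least 25.9-fold higher at day 45 (adjusted p = 1.90e-07), with 14.7 ± 0.48 CPM at day 31 already.

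The partners of membrane mucins were measured beside them. Of 8 such genes, 5 were higher and 1 lower at day 45 than at day 16, with a median of 0.85. MSLN, the mesothelin that binds MUC16, rose by 2.52 ± 0.68 between day 23 and day 31 (edgeR, adjusted p = 0.0379), in the step in which MUC16 rose. In the next step MUC16 fell, while the MSLN libraries went from 7.06 and 4.07 CPM to 15.2 and 15.0, a difference of 1.44 ± 0.59 that did not pass (adjusted p = 0.107). The call from day 23 to day 31 was lost in 5 of 10 fits that each left out 1 library, day 23 replicate 1 and each library of days 31 and 38. ERBB2, the receptor that MUC4 binds, fell by 1.26 ± 0.16 on the log2 scale from day 16 to day 45 (adjusted p = 8.88e-08), while MUC4 rose. LGALS3, a galectin that binds mucin sugars, rose over the same span by 1.69 ± 0.40 (adjusted p = 0.00142).

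Among the 7 mucins, all with a mean of at least 5 CPM, the correlation of log2 CPM over the 10 libraries was highest between MUC4 and MUC5B (r = 0.893) and lowest between MUC16 and MUC20 (r = -0.198), a description of libraries that share their days in pairs. Outside the 10 genes, the profile most like that of MUC4 among 13115 genes was MXD1 (r = 0.994), followed by CXCL2 and IL1RL1. For MUC1 it was GPD1L (r = 0.983), for MUC5B NDUFS7 (r = 0.979) and for MUC5AC COL11A1 (r = 0.972). For MUC20 it was NR4A2 (r = 0.968), for MUC16 FBXO34 (r = 0.954) and for MUC13 PNKD (r = 0.950).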

How the data were processed

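RNA of sorted cells went into low-input libraries for paired-end sequencing. By the study's methods and the submitters' processing notes, the authors used Trimmomatic on the reads, HISAT2 for alignment to GRCh38 and HTSeq for counting, and the values they deposited are raw counts per gene symbol without normalization. The strand setting is not given in the sources used here, so that overlapping genes on opposite strands cannot be told apart. Groups and replicate numbers follow the labels, and by the methods the 2 libraries of a day are biological replicates. No molecular identifiers are named, so floors cover counting error only.

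A gene entered the test with a minimum of 5 counts in 2 or more libraries. All days were fitted together with 1 mean per day (edgeR 4.0.16 in R 4.3.3, glmQLFit and glmQLFTest, TMM factors, Benjamini-Hochberg adjustment over 21014 genes, threshold 0.05, 5 residual degrees of freedom). Standard errors are the log2 fold change over the square root of F. Folds against a day without counts use a floor of 3 counts per library. Exon lengths came from GENCODE 44, in which all 10 members and 91.1% of symbols were matched. Alternatives were DESeq2 1.42.0, other scaling, other filters, a replicate block and leaving out each library. From each further list, up to 4 called genes per comparison with the largest changes and a mean of at least 5 CPM could be named. Cell type markers, MUC2, ITLN1, ATOH1 and the genes named as not passing fall outside this rule and were picked with their values in view. The members and all lists were chosen with earlier results of these data known.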

Additional observations from a re-analysis of the deposited data

How the results depend on the processing

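No alternative reversed the direction of a called member. Among the members' called log2 fold changes, 134 values under other tools, scalings, filters or the block kept their call and 4 lost it (MUC1 with library size alone from day 31 to 38, and with DESeq2 MUC5B in both later steps and MUC13 in the last). In the fits without 1 library 214 kept it and 16 lost it. DESeq2 called 3 members in place of 5 from day 38 to day 45. With the longest transcript as the length, the level on the highest day was 44.1 CPM per kb for MUC1, 8.31 for MUC4 and 3.19 for MUC20.
Leaving out 1 library gave 1 to 3 members called from day 16 to 23, 2 to 3 from day 23 to 31, 3 to 6 from day 31 to 38, 4 to 5 from day 38 to 45, 6 to 8 from day 16 to 45 and 8 to 9 over all days. The genes called ran from 1350 to 2383, 206 to 646, 1764 to 3613, 1166 to 2815, 3969 to 5222 and 6331 to 7762 in the same order.
The replicate numbers do not pair the samples, since the correlations of same-numbered deviations lay between -0.032 and 0.0199 over 10 pairs of days. With the replicate number as a block, 3, 3, 6, 5 and 8 members passed in these comparisons and 9 over all days, with MUC1 added from day 23 to 31 and CLCA1 from day 31 to 38. The genes called with the block were 2703, 678, 3472, 2691 and 5460, and 8239 over all days. Depth limits SPDEF, TFF3 and the early values of MUC5AC and CLCA1 to a few counts.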
